A study of Mus musculus with 8 samples.

Results

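The imprinted genes described here are 9 genes reported in blood stem cells, namely Ndn, Grb10, Peg3, Mest, Meg3, H19, Igf2r, Plagl1 and Impact, found by their symbols among the 53700 genes of the deposited count table. All 9 were present in the table, and 4 of them had counts in these cells. The data are 8 mouse RNA libraries of polyadenylated transcripts, 1 per cell type and genotype of the donor. Haematopoietic stem cells (HSC) were sorted as CD48- CD150+ and multipotent progenitors (MPP) as CD48+ CD150-, both within the LSK gate of lineage-negative, Sca-1-positive, Kit-positive marrow. Donor marrow was Nfat5 +/+ Vav-Cre (WT), Nfat5 fl/fl Vav-Cre (N5), IFNAR1-deficient (IFNAR), or Nfat5 fl/fl Vav-Cre with IFNAR1 deficiency (DKO). All donors were CD45.2, all recipients were irradiated wild-type CD45.1 mice, and donor-derived cells were sorted 13 weeks after transplantation and pooled in equal numbers from 5 recipients per library. The Vav promoter drives Cre in blood-forming cells, and the labels name no Cre for the IFNAR donors and no ages. Every library therefore comes from marrow that had regrown in an irradiated host, and none comes from an untransplanted mouse.

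Imprinted genes are transcribed mainly from the copy inherited from one parent, because DNA methylation set in the germline marks a control region of their chromosomal domain. Many of them act on fetal growth, and several have been tied in mouse to the quiescence of blood stem cells. In most mouse tissues Ndn, Peg3, Mest, Plagl1 and Impact are transcribed from the paternal copy, while Grb10, Meg3, H19 and Igf2r are transcribed from the maternal copy. The counts here are summed over both copies and cannot tell the parental alleles apart.

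Ndn and Grb10 were the members whose levels separated the 2 cell types, and their start regions are shown for that reason. The windows are RefSeq promoters of build GRCm38.p6, with 250 bases before and 50 after the annotated start, read in the direction of transcription, and CG dinucleotides, the sites of DNA methylation, are in capitals. Grb10 has 2 annotated starts in that table, which the summed counts do not separate. The windows are chr7:62348027-62348326 (plus strand) for Ndn, and chr11:12037371-12037670 and chr11:12027922-12028221 (minus strand) for the upstream and downstream starts of Grb10.
Ndn: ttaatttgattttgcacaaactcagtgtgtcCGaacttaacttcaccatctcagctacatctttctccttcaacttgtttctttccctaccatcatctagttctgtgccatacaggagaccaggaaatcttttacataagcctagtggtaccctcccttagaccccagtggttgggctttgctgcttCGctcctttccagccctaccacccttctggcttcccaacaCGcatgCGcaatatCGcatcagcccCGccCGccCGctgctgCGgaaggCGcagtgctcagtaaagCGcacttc
Grb10 upstream start: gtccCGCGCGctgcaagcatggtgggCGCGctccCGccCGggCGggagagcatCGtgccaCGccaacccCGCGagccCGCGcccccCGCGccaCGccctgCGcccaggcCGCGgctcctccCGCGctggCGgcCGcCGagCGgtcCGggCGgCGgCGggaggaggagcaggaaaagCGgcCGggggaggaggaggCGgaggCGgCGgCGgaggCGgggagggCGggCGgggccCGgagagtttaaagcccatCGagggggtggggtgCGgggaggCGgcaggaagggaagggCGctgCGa
Grb10 downstream start: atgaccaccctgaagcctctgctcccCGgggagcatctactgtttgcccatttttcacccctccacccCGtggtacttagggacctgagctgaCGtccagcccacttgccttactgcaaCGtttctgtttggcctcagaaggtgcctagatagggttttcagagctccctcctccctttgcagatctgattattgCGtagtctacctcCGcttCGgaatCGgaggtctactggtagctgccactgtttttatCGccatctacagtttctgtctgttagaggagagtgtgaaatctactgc
The Ndn window held 11 CG dinucleotides, the upstream Grb10 window 45 and the downstream Grb10 window 9, against a median of 7 over all 32851 windows in the table. The upstream Grb10 window had more CG dinucleotides than 98.1% of the windows. The hexamer TGCCGC, which the imprint-protecting factor ZFP57 binds when methylated, was searched on both strands. It occurred 1 time in the upstream Grb10 window and in neither of the other windows shown, and 11.6% of all windows held it. Of the other members with a window, Igf2r had 34 CG dinucleotides, Plagl1 26 and Peg3 13, while the 3 windows of Mest had 8, 17 and 17 and the 2 of Meg3 had 13 and 1. The hexamer occurred 2 times in each of the 2 Mest windows with 17, which overlap, and 1 time in the Plagl1 window and in the Meg3 window with 13.

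Total counts ran from 28871693 to 47205950 per library, and 13510 to 14781 genes had a count. Levels are given in CPM, a gene's count relative to the size of its library, scaled by trimmed mean of M values (TMM), and the 4 values of a cell type stand in the order WT, N5, IFNAR and DKO unless a label is named. The summed level of 10 stem cell markers was 1879 to 2273 CPM in the HSC libraries and 524 to 722 CPM in the MPP libraries, and that of 5 progenitor markers was 258 to 552 CPM and 6812 to 11750 CPM in the same order. Nfat5 had 22.7 and 35.5 CPM under the HSC labels N5 and DKO but 33.2 and 3.12 CPM in those labelled WT and IFNAR. In MPP it had 7.69 and 11.5 CPM under N5 and DKO and 5.59 and 0.193 CPM under WT and IFNAR. Ifnar1 had 113 and 35.1 CPM in HSC labelled IFNAR and DKO against 122 and 126 CPM under WT and N5, and 43.8 and 125 CPM in MPP against 37.2 and 87.9 CPM. Neither targeted transcript followed the labels, and which exons were deleted is not known from the labels, so every genotype below means the library labelled with it.

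Ndn encodes necdin, a protein of the MAGE family that restrains cell division. It had 31.4, 17.5, 38.3 and 26.3 CPM across the HSC libraries, from 536 to 1501 counts, and 0 counts in all 4 MPP libraries. Every HSC library stood above every MPP library, in all 4 genotypes. The HSC mean was 28.4 ± 8.79 CPM (SD, n = 4 libraries), at least 305-fold higher than the mean of the MPP detection floors, each set at 3 counts per library. Within genotypes the bound was 317-fold in WT, 166-fold in N5, 465-fold in IFNAR and 309-fold in DKO. Floors cover counting error only. In bulk pools, fewer expressing cells and less RNA per cell cannot be told apart.

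Ndn did not pass the test of HSC against MPP in edgeR's quasi-likelihood model with genotype as a block (Benjamini-Hochberg adjusted p = 0.371). In that test 2 of 12132 genes passed, or 0.0165%, and 0 of the 4 imprinted genes tested, while 10.1% of all genes had an unadjusted p under 0.05. DESeq2 called Ndn (adjusted p = 8.43e-15), as did limma-voom (adjusted p = 0.0182) and edgeR without the genotype block (adjusted p = 0.0196), but these methods called 15.5%, 1.29% and 1.71% of the genes tested. edgeR's bias-adjusted method, which called 0.882%, did not call it (adjusted p = 0.181). Ndn met the expression filter through its HSC libraries alone, so a difference of some size was fixed by the filter. Its level varied little among the stem cell libraries. The SD of its log2 CPM in HSC was 0.48, lower than in all but 17.9% of the 2949 genes with a mean of 20 to 50 CPM there. That rank was partly fixed too, since a gene at 0 in MPP passed the filter only with counts in all 4 HSC libraries. Of the 2949 genes, 13.2% had at least 1 HSC library at 0 counts.

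Grb10 encodes an adaptor that binds the insulin and IGF1 receptors and dampens their signalling. It had 83.3, 133, 76.4 and 99.9 CPM across the HSC libraries, and 8.04, 16.0, 25.5 and 5.24 CPM across the MPP libraries. Unlike Ndn it had counts in all 8 libraries, and the lowest HSC library stood above the highest MPP library. The means were 98.2 ± 25.3 CPM in HSC and 13.7 ± 9.09 CPM in MPP (SD, n = 4 libraries each), a 7.17-fold ratio. The ratio was 19.1-fold in DKO, 10.4-fold in WT, 8.30-fold in N5 and 3.0-fold in IFNAR, where the MPP level was highest.

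In edgeR the log2 fold change of Grb10 was 3.08 (SE 0.57, adjusted p = 0.225), which did not pass. DESeq2 called it (adjusted p = 8.31e-09), edgeR without the genotype block called it (adjusted p = 0.0413), and limma-voom and the bias-adjusted method did not (adjusted p = 0.165 and 0.0518). Its spread in HSC was also small, with an SD of log2 CPM of 0.35, lower than in all but 23.1% of the 3283 genes with a mean of 50 to 150 CPM. Of the 4 imprinted genes tested, Ndn and Grb10 had every HSC library above every MPP library, as did 4.73% of all tested genes. Every HSC library stood below every MPP library for 0 of the 4, a pattern that 5.65% showed. Both Ndn and Grb10 were higher in HSC in 4 of 4 genotype pairs, as were 9.81% of all tested genes. For Ndn, with 0 counts in MPP, the filter fixed both patterns beforehand, so these shares can be set beside Grb10 alone.

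**Figure D1:**
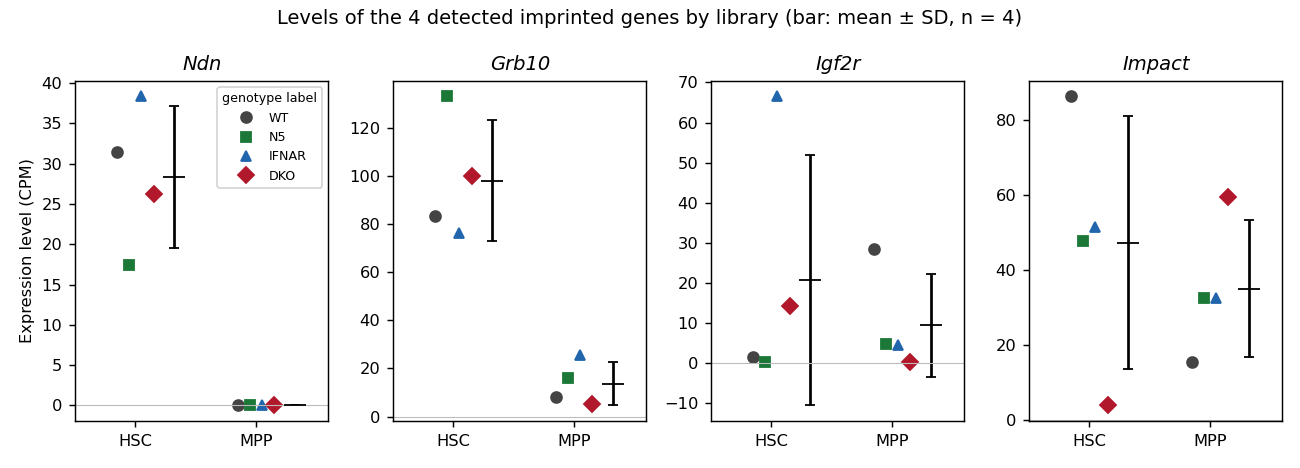
Expression levels in CPM (vertical axes) of the 4 detected imprinted genes in the HSC and MPP libraries, with 1 symbol per library by genotype label and the mean ± SD of 4 libraries beside them. Ndn and Grb10 separate the cell types, while Igf2r and Impact overlap, and the lower SD bars of Igf2r reach below 0 because 1 library in each cell type lies far above the rest.

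Megakaryocyte markers had a higher sum in the same libraries as Ndn and Grb10, with a level over 6 genes of 245 to 470 CPM in HSC and 45.6 to 164 CPM in MPP. Of the 5 of them tested, fitted levels were higher in HSC for 4 and lower for 1, Ppbp, and 44.2% of all tested genes were higher. Pf4 had 54.1 to 132 CPM in HSC and 1.49 to 5.48 CPM in MPP. Gp9 had 29.1 to 76.7 CPM and 5.46 to 14.8 CPM in the same order, and these 2 did not overlap between the cell types. In the megakaryocyte list Itga2b supplied 120 to 265 CPM in HSC and 26.1 to 150 CPM in MPP. Ppbp had 21.5 CPM in the HSC library labelled WT and 0 counts in the rest of HSC. Erythroid markers (5 genes) summed to 190 to 578 CPM in HSC and 116 to 229 CPM in MPP. The globin genes Hbb-bs, Hbb-bt and Hba-a1 had higher means in HSC. Klf1 was lower in HSC (means of 3.20 and 24.0 CPM) and Epor was similar (11.5 and 11.8 CPM). The part of either lineage in the levels of Ndn and Grb10 was not tested. Of 10 markers of stroma and mesenchyme, tissues rich in imprinted transcripts, 6 had 0 counts in all 8 libraries, among them Col1a1, Col3a1, Lepr and Pdgfra, and the list summed to 0.0326 to 20.2 CPM in HSC and 55.7 to 71.3 CPM in MPP, where Pdgfrb supplied 55.7 to 71.2 CPM. In HSC the stroma sum came mainly from Col1a2, with 6.52 and 20.2 CPM under IFNAR and DKO and 0 counts in the other 6 libraries. Of 6 endothelial markers Cdh5 and Plvap had 0 counts throughout, and the list summed to 0.102 to 75.7 CPM in HSC and 4.99 to 67.2 CPM in MPP. Kdr had 31.2 and 20.7 CPM in HSC labelled WT and N5, and 0 to 23.6 CPM in MPP. Emcn had 75.6 CPM in HSC labelled DKO, and 4.99 to 43.6 CPM in MPP. Markers of T and NK cells summed to 0 in HSC and 0 to 19.1 CPM in MPP (Cd3e and Cd3g at 0 throughout), and those of B cells to 0 to 3.93 CPM and 12.7 to 30.7 CPM. The 5 neutrophil markers summed to 391 to 469 CPM in HSC and 519 to 1853 CPM in MPP, a gap that came from Elane (means of 37.7 and 935 CPM). The other 4, S100a8, S100a9, Camp and Ltf, had slightly higher means in HSC, such as 118 CPM against 113 CPM for S100a8. Monocyte and macrophage markers summed to 0 to 0.0290 CPM in HSC and 62.0 to 245 CPM in MPP.

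Igf2r encodes the cation-independent mannose 6-phosphate receptor, which takes up IGF2 and sends it to lysosomes. It had 1.39, 0.326, 66.5 and 14.3 CPM across the HSC libraries, from 10 to 2603 counts, and 28.4, 4.67, 4.48 and 0.142 CPM in MPP. The direction between cell types followed the Ifnar1 label. MPP stood 20.4-fold above HSC in WT and 14.3-fold above in N5, whereas HSC stood 14.8-fold above MPP in IFNAR and 101-fold above in DKO. The DKO ratio divides by 5 counts in MPP and the N5 ratio by 10 counts in HSC, close to the floor of 3 counts. The edgeR interaction of cell type with the Ifnar1 label had a log2 value of 8.99 and an adjusted p = 0.810, so the opposite order did not pass, and the smallest adjusted p of that interaction over all genes was 0.451.

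Averaged over genotypes, Igf2r had 20.6 ± 31.2 CPM in HSC against 9.41 ± 12.8 CPM in MPP (SD, n = 4 libraries each), and its log2 fold change of 0.34 had an SE of 4.65 (edgeR adjusted p = 0.996). That direction was not stable, since it became -2.47 without the HSC library labelled IFNAR and -2.51 without the one labelled DKO (adjusted p = 0.935 and 0.907), and -2.47 and -2.51 without the MPP libraries of the same labels. With genotype as a block, leaving out either library of a label removes that pair, so the MPP fits nearly repeat the HSC fits. The spread of Igf2r in HSC exceeded that of 83.4% of the genes with a mean of 20 to 50 CPM. Among those genes 13.2% had at least 1 HSC library at 0 counts, and among genes with a mean of 5 to 20 CPM the share was 49.4%, against 3.19% and 26.5% in MPP.

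Impact encodes an inhibitor of the activation of GCN2, the kinase that slows translation when amino acids are scarce. It had 86.4, 47.7, 51.5 and 3.86 CPM across the HSC libraries, and 15.4, 32.6, 32.7 and 59.5 CPM in MPP. HSC stood 5.60-fold above MPP in WT, 1.47-fold in N5 and 1.58-fold in IFNAR, and MPP stood 15.4-fold above HSC in DKO. The DKO libraries thus held the lowest HSC level and the highest MPP level. The means of 47.4 ± 33.8 and 35.0 ± 18.2 CPM overlapped (n = 4 libraries each), and the log2 fold change of 0.25 had an SE of 1.23 (edgeR adjusted p = 0.983). Without the HSC library labelled WT the log2 fold change was -0.65 (edgeR adjusted p = 0.957). Leaving out the MPP library of that label, which is nearly the same fit, gave -0.65.

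**Figure D2:**
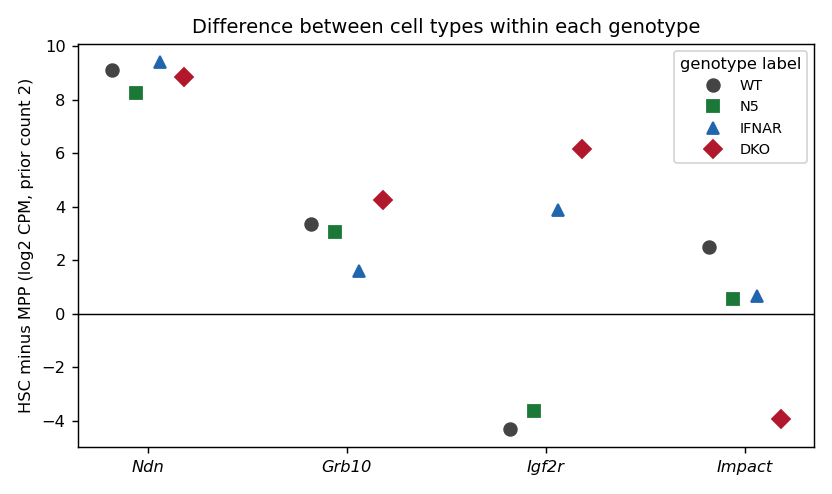
Difference between HSC and MPP within each genotype label for the 4 detected imprinted genes, in log2 CPM with a prior count of 2 (vertical axis), with 1 symbol per genotype. Ndn (8.27 to 9.40) and Grb10 (1.58 to 4.24) lie above 0 in 4 of 4 genotypes, Igf2r lies below 0 in WT and N5 and above 0 in IFNAR and DKO, and Impact lies below 0 in DKO.

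Peg3, Mest, Meg3, H19 and Plagl1 had 0 counts in each of the 8 libraries, out of 151234882 counts over the HSC libraries and 132061923 over the MPP libraries. Peg3 and Plagl1 encode zinc finger transcription factors, Mest a protein of the alpha/beta hydrolase family, and Meg3 and H19 are long noncoding RNAs. A count of 0 allows up to 3 counts per library, or 0.0633 to 0.105 CPM, for counting error. That limit does not cover reads that the authors' counting may have left out, for instance reads matching several places, which was not tested. The 5 genes at 0 comprised 3 paternally and 2 maternally transcribed genes, and the 4 detected genes comprised 2 of each. Among all genes counted, 39.1% of protein-coding genes and 79.4% of long noncoding RNA genes had 0 counts in every library. No HSC-to-MPP comparison can be made for these 5 genes.

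The wider imprinted domains of the 9 genes were set beside them. In the Peg3 domain all 5 listed genes (Peg3, Usp29, Zim1, Zim3 and Zfp264) had 0 counts throughout. In the Dlk1-Meg3 domain 5 of 6 listed genes had 0 counts, including Rian, Mirg, Rtl1 and Dio3, and Dlk1, which encodes a Notch-related surface protein, had 1.18 CPM in the HSC library labelled DKO and 0 counts in the other 7. In the domain of H19 the fetal growth factor gene Igf2 had 2.12 CPM in the HSC library labelled N5 and 0 counts elsewhere, and Ins2 had 0 counts. Beside Mest, Klf14 had 0 counts, while Copg2, a coat protein gene whose 3' end meets that of Mest, had 12.1 to 67.1 CPM in HSC and 7.25 to 70.3 CPM in MPP. Phactr2, a neighbour of Plagl1, had 37.4 to 63.0 CPM in HSC and 48.5 to 94.3 CPM in MPP. Copg2 and Phactr2 had counts in all 8 libraries in which Mest and Plagl1 had 0.

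Listed neighbours of Ndn, Grb10 and Igf2r are given next, and none was listed for Impact. In the domain of Ndn, whose human counterpart is lost in Prader-Willi syndrome, Magel2 and Snurf had 0 counts, Snrpn, a splicing protein gene, had 9.85 and 8.32 CPM with the HSC labels N5 and DKO and 0 counts in the other 6, and Mkrn3 had 10.3 CPM in the MPP library labelled DKO alone. Ube3a, the ubiquitin ligase gene of the same domain, had 66.5 to 128 CPM in HSC and 40.1 to 186 CPM in MPP, and Peg12 had 5.68 to 11.9 CPM and 2.39 to 21.0 CPM. Atp10a, a phospholipid flippase gene at the edge of that domain, went the other way to Ndn, with 23.9 to 40.3 CPM in HSC and 43.1 to 125 CPM in MPP (log2 fold change -1.33, SE 0.44, edgeR adjusted p = 0.408). Beside Grb10, Cobl had 0 counts and Ddc, the dopa decarboxylase gene, had 9.07 CPM in the HSC library and 0.0550 CPM in the MPP library labelled IFNAR and 0 counts elsewhere. Beside Igf2r, the antisense RNA Airn had 5.69 CPM in the MPP library labelled WT, the MPP library with the most Igf2r, and 0 counts elsewhere. Airn overlaps Igf2r on the opposite strand, and the library protocol does not mark strand, so reads of their shared stretch cannot be assigned. Slc22a2 had 0 counts, and the cation transporter gene Slc22a3 of that domain had 22.1 to 43.5 CPM in HSC and 63.7 to 104 CPM in MPP (log2 fold change -1.34, SE 0.33, edgeR adjusted p = 0.319).

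**Figure D3:**
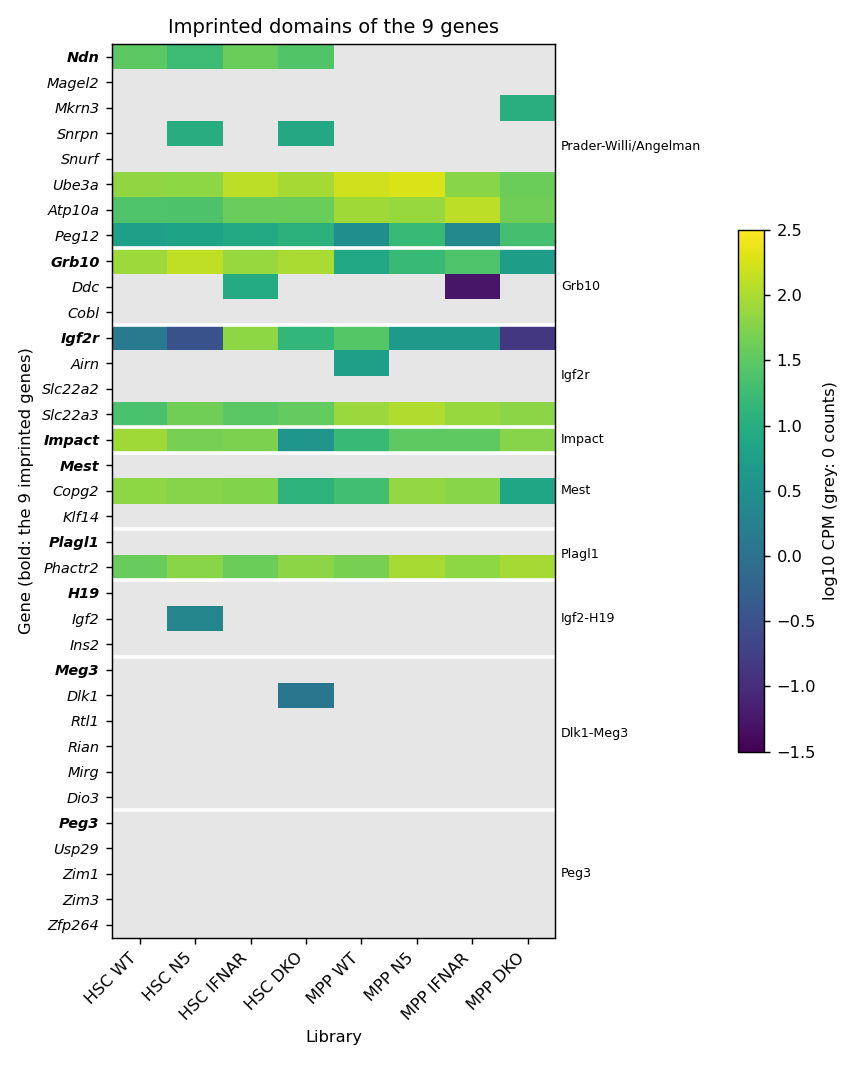
Levels of the 9 imprinted genes (bold) and the other listed genes of their domains (rows) in the 8 libraries (columns), coloured by log10 CPM, with 0 counts in grey. Ndn fills the 4 HSC columns alone, the Peg3 domain is grey throughout, and Igf2, Dlk1, Airn and Mkrn3 each appear in 1 library.

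Whether each gene listed as imprinted is imprinted in these cells was not tested. Of 66 other imprinted genes matched in the table, 26 had 0 counts in every library, 9 had counts but too few to test, and 31 were tested. Of these 31, 0 passed in edgeR in either direction, and 15 had a higher and 16 a lower fitted level in HSC. The median log2 fold change was -0.01, beside -0.10 over all 12132 genes tested, of which 44.2% were higher in HSC. Every HSC library stood above every MPP library for 2 of the 31, Cd81 and Ampd3, and below for 3, Atp10a, Slc22a3 and Gatm. Over all tested genes these patterns were shown by 4.73% and 5.65%. Cd81, which encodes a tetraspanin of the cell surface, had 456 ± 22.3 CPM in HSC against 273 ± 36.5 CPM in MPP (n = 4 libraries each), the smallest relative spread of these 5, with a log2 fold change of 0.75 (SE 0.12, edgeR adjusted p = 0.168). Ampd3, an AMP deaminase gene, had 98.3 CPM in the HSC library labelled WT and 29.6 to 36.7 CPM in the other 3, and 0 to 29.3 CPM in MPP. Gatm, which makes the creatine precursor guanidinoacetate, had 58.6 ± 27.6 CPM in HSC against 158 ± 43.6 CPM in MPP (edgeR adjusted p = 0.448).

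Other well-known imprinted genes overlapped between the cell types. Cdkn1c, the CDK inhibitor p57, had 8.71 CPM in the HSC library labelled IFNAR and 0 counts in the other 7. Kcnq1ot1, the antisense RNA of its domain, had 54.1 to 134 CPM in HSC and 2.15 to 100.5 CPM in MPP. Since strand is not marked, its reads cannot be told from those of Kcnq1 where they overlap. Kcnq1 was counted at 0 in every library. Gnas, the stimulatory G protein alpha subunit gene, had 55.3 to 308 CPM and 118 to 282 CPM, and the signal peptide peptidase gene H13 had 248 to 332 CPM and 183 to 347 CPM, with Mcts2 lying inside H13. Sgce had 15.9 to 49.0 CPM in HSC and 5.02 to 46.2 CPM in MPP, while Peg10, which shares its start region, had 0 counts throughout. Nnat, which encodes neuronatin, had 0.956, 1.6 and 1.79 CPM with the HSC labels WT, N5 and IFNAR, 0.680 CPM in the MPP library labelled DKO, and 0 counts in the other 4.

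**Figure D4:**
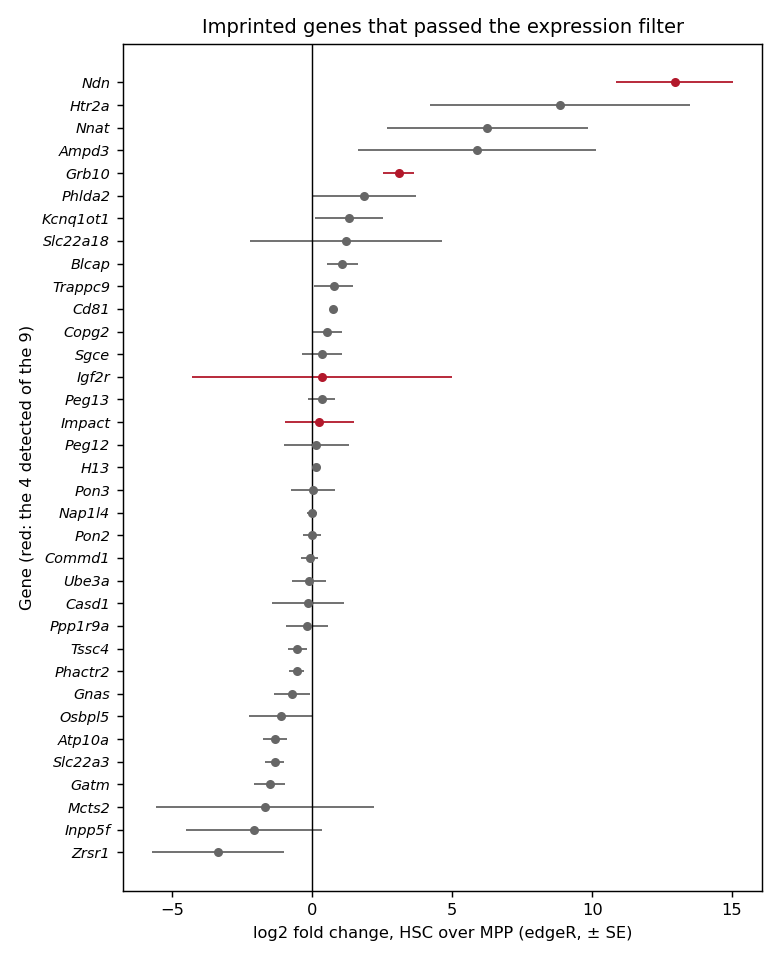
Log2 fold change of HSC over MPP with its SE (horizontal axis, edgeR) for the 35 imprinted genes that passed the expression filter, ordered by size, with the 4 detected members in red. Ndn lies at the top with 12.96. Grb10 at 3.08 lies below several imprinted genes that are not members, among them Nnat (6.25) and Ampd3 (5.88). Igf2r has an SE of 4.65, and the other genes fall on both sides of 0. The fitted value of a gene with 0 counts in a cell type depends on the prior count and is no measure of its fold.

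A list of 18 genes mixed those that set or keep imprints with some that remove DNA methylation. Of these, Dppa3 and Zfp42 had 0 counts in every library and Dnmt3l had 8.57 CPM in the MPP library labelled N5 and 0 counts elsewhere. The other 15 were tested and 0 passed in edgeR, with 3 higher and 12 lower fitted levels in HSC and a median log2 fold change of -0.47. Over all tested genes 44.2% were higher in HSC and the median was -0.10. Uhrf1, which brings DNA methyltransferase to newly copied DNA, had 246 to 328 CPM in HSC and 333 to 524 CPM in MPP (log2 fold change -0.67, SE 0.15, edgeR adjusted p = 0.278). Its HSC libraries all stood below its MPP libraries, as for 5.65% of all tested genes, and that gap closed under the other scalings tried. Dnmt1, the maintenance methyltransferase gene, had 378 to 765 CPM in HSC and 653 to 909 CPM in MPP. Zfp57 had 2.17 to 39.0 CPM in HSC and 0 to 18.8 CPM in MPP, its partner gene Trim28 had 87.9 to 137 CPM and 52.6 to 167 CPM, and Zfp445 had 63.3 to 98.8 CPM and 31.7 to 120.5 CPM. Ctcf, whose protein insulates Igf2 from enhancers at the H19 control region, had 0.0290, 22.0, 0.102 and 41.5 CPM in HSC and 30.9, 48.8, 50.5 and 1.93 CPM in MPP, for WT, N5, IFNAR and DKO.

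The insulin-like growth factor pathway is where Igf2r and Grb10 act. Of 18 listed genes 7 were tested, 6 had 0 counts in every library, and 0 passed in edgeR. Fitted levels were higher in HSC for 4 and lower for 3, with a median log2 fold change of 0.37, and 44.2% of all tested genes were higher. Igf1r, the receptor that Grb10 binds, had 39.7, 0, 68.0 and 11.8 CPM across the HSC libraries and 6.99 to 39.7 CPM in MPP. Insr, the insulin receptor gene, had 14.4 to 26.7 CPM in HSC and 7.16 to 34.1 CPM in MPP. Igfbp4, a binding protein gene, was the member of this list whose groups did not overlap, with 253 ± 23.3 CPM in HSC and 490 ± 85.0 CPM in MPP (log2 fold change -0.94, SE 0.13, edgeR adjusted p = 0.143). Every HSC library stood below every MPP library in 5.65% of all tested genes.

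The libraries labelled with loss of Nfat5 were compared with those labelled intact, with cell type and Ifnar1 label in the model, and 0 of 12132 genes passed in edgeR (338 with an unadjusted p under 0.05, or 2.79%; DESeq2 called 166, or 1.37%, and limma-voom 0). Igf2r had 0.326 and 14.3 CPM in the N5 and DKO libraries of HSC against 1.39 and 66.5 CPM under WT and IFNAR, and 4.67 and 0.142 CPM in MPP against 28.4 and 4.48 CPM. It was lower in 4 of 4 matched pairs, as were 5.35% of all tested genes (5.79% were higher in 4 of 4), and its log2 fold change was -2.45 (SE 1.85, edgeR adjusted p = 1). Ndn was lower in both HSC pairs (log2 fold change -0.58, SE 1.16, edgeR adjusted p = 1). Grb10 was higher in 3 of 4 pairs with a log2 fold change of -0.05 (SE 0.61), a sign that turned under other methods. Impact was lower in both HSC pairs and higher in both MPP pairs, with a log2 fold change of -0.28 (SE 1.02). Grb10 and Impact each had an edgeR adjusted p = 1.

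For the libraries labelled with loss of Ifnar1, 0 of 12132 genes passed in edgeR (398 with an unadjusted p under 0.05, or 3.28%; DESeq2 called 233, or 1.92%, and limma-voom and the bias-adjusted method 1 each, or 0.00824%). Ndn was higher in both HSC pairs (log2 fold change 0.36, SE 1.15), and Grb10 was lower in 3 of 4 pairs (0.01, SE 0.61). Igf2r was higher in both HSC pairs and lower in both MPP pairs (1.07, SE 4.15), and Impact was lower in both HSC pairs and higher in both MPP pairs (-0.21, SE 1.01). All 4 had an edgeR adjusted p = 1. No member was lower or higher in 4 of 4 pairs, as 6.16% and 5.90% of all tested genes were.

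The genes whose log2 CPM over the 8 libraries was most like that of each member were listed as a description, since the points share libraries and cell types. For Ndn these were Inha, Runx1t1 and Ocln (Pearson's r of 0.998, 0.997 and 0.997), all at 0 in MPP and with means of 6.0, 12.5 and 22.5 CPM in HSC. A gene at 0 in MPP passed the filter only with counts in every HSC library, so a high r with Ndn was largely fixed beforehand. For Grb10 they were Pf4, Sult1a1 and Cavin1 (r of 0.978, 0.974 and 0.972). Pf4, a platelet chemokine gene, had 80.8 CPM in HSC against 3.35 CPM in MPP on average. For Igf2r they were Rab3a, Eme2 and Nudt9 (r of 0.933, 0.930 and 0.913), and for Impact AW146154, Fancl and Psme3ip1 (r of 0.954, 0.95 and 0.944), with similar means in the 2 cell types.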

How the data were processed

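Per the labels, RNA was purified on small columns and libraries followed Smart-Seq2. That method copies whole polyadenylated transcripts and marks neither strand nor molecule. Per the submitters' processing notes, STAR 2.7.8a, RSEM 1.3.0 and GRCm39 were used. The authors deposited whole-number counts without normalization, and neither the annotation release nor any rounding of RSEM estimates is stated. Columns were matched by name to the labels, and genes were followed by identifier.

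Counts were tested with edgeR 4.0.16 in R 4.3.3 (glmQLFit, older method, and glmQLFTest; TMM factors; filterByExpr by cell type; 12132 genes; Benjamini-Hochberg adjustment over all of them, threshold 0.05). SEs were derived from the log2 fold change and the quasi-likelihood F statistic. The test of cell type carried the genotype block, leaving 3 residual degrees of freedom. Nfat5 and Ifnar1 labels were tested with cell type in 1 additive model (4 residual degrees of freedom). No group was replicated, so p-values measure only the spread between these libraries. Common dispersion was 1.09 to 1.14. The fits were tested on simulated data. Alternatives were DESeq2 1.42.0, limma-voom (limma 3.58.1), size factors, filters, the bias-adjusted method, no block, and leaving out each library. In the test of cell type, leaving out either library of a genotype removes that pair, so the fits of a label nearly repeat each other.

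The members, lists, tests and naming rule were chosen with earlier results of these data known. Named genes were the 9 members, the listed genes of their domains, listed genes whose groups did not overlap, and the 3 genes of most similar log2 CPM (prior count 2) per member. Cdkn1c, Kcnq1ot1, Sgce, Peg10, Gnas, Nnat, H13, Ctcf, Zfp57, Zfp445, Uhrf1, Dnmt1, Trim28, Igf1r and Insr were chosen after their values were seen. Promoter windows came from RefSeq for 7 of the 9 members. No coordinates of GRCm38 were joined to the counts, which carry none.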

Additional observations from a re-analysis of the deposited data

Results flagged for a closer look

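Values are CPM, and each stood apart from the other 3 libraries of its cell type by a gap, relative to the range, larger than Dixon's 95% critical value for 4 libraries. The 61 groups examined had unequal values in a cell type. They were those of the members, the listed genes of their domains, listed genes whose groups did not overlap, and the genes chosen after their values were seen. The cell type markers and the genes of similar pattern were not examined. Nor was Dnmt3l, which had 8.57 CPM in the MPP library labelled N5 and 0 counts elsewhere. Chance gives such a gap in about 1 in 20 groups of spread values, a rate that does not carry over to 8 of the 11 values below, for which the other 3 libraries were at 0. Igf2r had 28.4 CPM in the MPP library labelled WT and 0.142 to 4.67 CPM in the others. Ampd3 had 98.3 CPM in the HSC library labelled WT and 29.6 to 36.7 CPM in the others. Igfbp4 had 219 CPM in the HSC library labelled DKO and 260.1 to 268 CPM in the others. The remaining genes had 0 counts in the other 3 libraries. Airn had 5.69 CPM in MPP labelled WT, Cdkn1c 8.71 CPM in HSC labelled IFNAR, Dlk1 1.18 CPM in HSC labelled DKO and Igf2 2.12 CPM in HSC labelled N5. Ddc had 9.07 CPM in HSC labelled IFNAR and 0.0550 CPM in MPP of that label. Mkrn3 had 10.3 CPM and Nnat 0.680 CPM in MPP labelled DKO.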

How the results depend on the processing

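The number of genes called between HSC and MPP was 2 in edgeR with the genotype block, 23 with a filter of 10 CPM in 4 libraries, 107 with the bias-adjusted method, 156 in limma-voom, 1880 in DESeq2 and 207 without the replicate block of genotype, and it was 0 in each of the 8 fits that left out 1 library. For the Nfat5 label the count of 0 became 166 in DESeq2, and for the Ifnar1 label 233 in DESeq2, 1 in limma-voom and 1 with the bias-adjusted method. Grb10 kept a positive log2 fold change between cell types in every alternative, from 2.68 to 3.56 when 1 library was left out. Ndn ran from 12.75 to 13.17, but its 0 counts in MPP fixed the sign beforehand. Its fitted value depends on the prior count, so that range is no measure of stability. Under edgeR's bias-adjusted method the adjusted p was 0.181 for Ndn and 0.0518 for Grb10. Igf2r ran from -2.51 to 3.34 and Impact from -0.65 to 1.21 when 1 library was left out, so neither had a stable direction. For the Nfat5 label Grb10 turned to 0.28 with the bias-adjusted method and 0.45 in limma-voom, and ran from -0.33 to 0.55 without 1 library, as Impact did from -1.30 to 0.47. For the Ifnar1 label Grb10 turned to -0.16 and -0.24 under the same methods, and without 1 library ran from -0.70 to 0.41, Igf2r from -2.01 to 3.94 and Impact from -1.24 to 0.51. The cause was not tested. In the list of genes that set, keep or remove imprints, the count not overlapping between cell types went from 1 to 0 with unscaled CPM and with DESeq2 size factors. With 1 library per group, the number of calls depended on the method, and no count here limits how many genes differ.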
